A study of Mus musculus with 61 samples.

Results

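The CDK inhibitors and G1 cyclins described here are 10 genes chosen by name for their place in the cell cycle, with no measured value in the rule, out of 46078 genes in the count table. They are the Cip/Kip inhibitors Cdkn1a, Cdkn1b and Cdkn1c, the INK4 inhibitors Cdkn2a, Cdkn2b and Cdkn2c, the D-type cyclins Ccnd1, Ccnd2 and Ccnd3, and the E-type cyclin Ccne1. All 10 passed the filter on low values, which left 24004 genes for testing. The question was how their transcripts differed between pancreatic duct cells with and without Neurogenin3 (Ngn3), a transcription factor of endocrine progenitors, and whether this depended on the form of Ngn3 or on the factors expressed with it.

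The cells were C57BL/6 pancreatic organoids, which are cultures of duct cells, infected with separate lentiviral vectors that encode GFP with Ngn3, LSSOrange with Pdx1 and tdTomato with MafA. A further vector, under the Pgk promoter, carried the transactivator through which doxycycline switches these genes on. After 8 days of doxycycline, pools of 50 cells were sorted by colour and sequenced. WT cultures received wild-type Ngn3, and 6SA cultures received a phospho-mutant Ngn3 in which serines are changed to alanine. From each kind of culture came cells with Pdx1, with MafA or with both but without Ngn3 (Pdx1, MafA and Pdx1-MafA cells), and cells with Ngn3 added to each of these (Ngn3-Pdx1, Ngn3-MafA and Ngn3-Pdx1-MafA cells). Cells without Ngn3 had been through the same infection and doxycycline and were selected by the absence of GFP, so they are not uninfected cells. Uninfected cells and cells with Ngn3 alone were not analysed here. There were 12 conditions and 32 samples, 17 with Ngn3 and 15 without, with 2 or 3 samples in each condition. Replicates 1 and 2 were organoids at passage 2 and replicate 3 was at passage 5. The labels do not say whether replicates came from separate mice, so the p-values measure the spread between these samples.

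Passage through G1 is driven by D cyclins, which activate CDK4 and CDK6, and then by E cyclins, which activate CDK2, and both kinds of complex phosphorylate the retinoblastoma protein and release E2F factors. INK4 proteins bind CDK4 and CDK6 and keep D cyclins from them, whereas the Cip/Kip proteins bind assembled cyclin-CDK complexes and inhibit CDK2 above all. In the developing pancreas, cells that express Ngn3 leave the cell cycle as they become endocrine.

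Ngn3 is a basic helix-loop-helix factor, and such factors bind the E-box, written CANNTG on either strand. RefSeq start sites on GRCm38.p6 gave 11 windows of the 250 bases before a start for 7 of the 10 genes, and only the second start of Cdkn1a and the start of Cdkn2b had these letters, 1 match each. Among all 32851 windows of this length, 66.2% held the motif at least once. A match describes the letters and not a bound site. Shown are both windows of Cdkn1a and those of Cdkn2b and Ccne1, which are called in comparisons described later, 5′ to 3′ on the strand of the gene with the E-box in capitals.
Cdkn1a, first start, chr17:29090729-29090978, plus strand: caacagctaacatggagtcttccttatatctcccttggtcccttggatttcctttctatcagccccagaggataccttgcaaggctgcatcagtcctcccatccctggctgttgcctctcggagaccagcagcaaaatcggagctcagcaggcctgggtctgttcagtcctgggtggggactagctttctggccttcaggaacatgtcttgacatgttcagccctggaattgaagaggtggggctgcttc
Cdkn1a, second start, chr17:29093519-29093768, plus strand: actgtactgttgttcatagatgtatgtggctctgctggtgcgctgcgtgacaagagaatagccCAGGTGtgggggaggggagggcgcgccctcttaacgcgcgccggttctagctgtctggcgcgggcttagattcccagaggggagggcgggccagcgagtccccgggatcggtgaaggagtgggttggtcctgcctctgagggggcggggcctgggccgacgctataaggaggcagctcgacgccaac
Cdkn2b, chr4:89311033-89311282, minus strand: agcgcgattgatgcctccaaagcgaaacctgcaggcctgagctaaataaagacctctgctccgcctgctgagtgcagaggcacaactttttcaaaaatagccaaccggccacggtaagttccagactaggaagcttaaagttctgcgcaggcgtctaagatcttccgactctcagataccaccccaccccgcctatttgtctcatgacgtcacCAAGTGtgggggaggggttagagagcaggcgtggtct
Ccne1, chr7:38107491-38107740, minus strand: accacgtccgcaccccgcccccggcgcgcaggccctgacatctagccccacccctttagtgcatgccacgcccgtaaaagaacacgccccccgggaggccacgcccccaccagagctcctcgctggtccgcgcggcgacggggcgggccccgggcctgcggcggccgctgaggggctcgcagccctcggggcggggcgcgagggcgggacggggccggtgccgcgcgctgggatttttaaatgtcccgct
The match at the second start of Cdkn1a begins 187 bases before it and that of Cdkn2b 37 bases before it.

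Samples held 2579583 to 19461008 gene counts, so that 3 counts, taken as the limit of detection, were worth 0.136 to 1.01 CPM (gene counts scaled to a common library size of 1000000 after TMM). Neurog3 itself lay between 7.87 and 329 CPM in the 17 samples sorted for Ngn3 and at 0 to 0.787 CPM in the 15 sorted without it, with no overlap. Mafa had at most 1 count in each of the 10 samples sorted without MafA, whereas the Pdx1 transcript did not separate samples by the Pdx1 reporter (3.21 to 30.6 CPM in Ngn3-MafA and 9.84 to 48.3 CPM in Ngn3-Pdx1 samples). The summed level of 10 duct markers had a median of 24419 CPM without Ngn3 and 6984 CPM with it. Of the 10, 7 were called lower, among them Muc1 and Krt19 (-2.75 and -3.27, log2). All 10 endocrine markers rose, with the lowest adjusted p for Scg3, Neurod1 and Rfx6, and their sum had a median of 5.24 CPM without Ngn3 and 4504 CPM with it. Sums of acinar, immune and endothelial markers reached at most 34.3, 43.6 and 26.6 CPM, and those of mesenchymal markers at most 19.1 CPM except in WT Ngn3-MafA replicate 1, which held 296 CPM. Cpa1, Ptf1a, Pnlip, Lum, Adgre1, Cd3e, Tyrobp, Cdh5, Tie1 and Emcn had at most 3 counts in every sample, while Cela1 fell by 3.95 (log2) with Ngn3. In these pools of cells, fewer cells of a type and less RNA per cell cannot be told apart.

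Over all co-factors and both cultures, 5 of the 10 genes changed with Ngn3 (edgeR quasi-likelihood test, adjusted p under 0.05), and the same number were called by DESeq2. Both inhibitors that changed rose, namely Cdkn1a, which encodes p21, and Cdkn1c, which encodes p57, and all the cyclins that changed fell, namely Ccnd1, Ccnd3 and Ccne1. No INK4 gene and neither Cdkn1b nor Ccnd2 passed the test. Of all 24004 genes, 21.5% were called in this comparison, 11.1% higher and 10.5% lower. The median log2 fold change was -0.21 over the 10 genes and 0.07 over all genes.

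**Figure D1:**
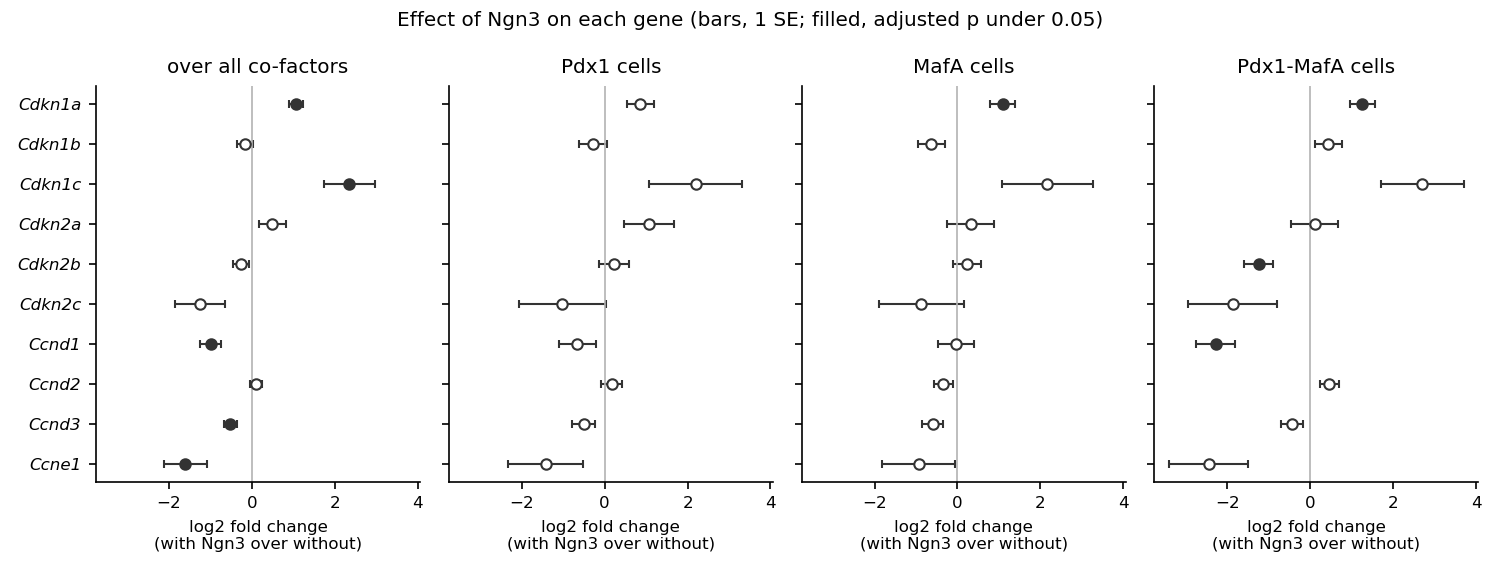
Log2 fold change with Ngn3 over without, with 1 standard error, for each of the 10 genes over all co-factors and within Pdx1, MafA and Pdx1-MafA cells. Filled points passed an adjusted p of 0.05 in edgeR, and Ccnd1 is at -2.28 in Pdx1-MafA cells and at -0.04 in MafA cells.

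Cdkn1a (chr17:29090976-29100727, plus strand), whose product p21 inhibits CDK2 and is induced by p53 and by differentiation signals, was the inhibitor with the highest level per kilobase of exon, with a median of 131 CPM per kb without Ngn3 and 302 CPM per kb with it. It had 361 to 1016 CPM (median 466) in the 15 samples without Ngn3 and 542 to 1697 CPM (median 1072) in the 17 with it. The groups overlapped, since 6SA MafA replicate 3 stood at 1016 CPM while Ngn3-Pdx1 and 6SA Ngn3-Pdx1-MafA samples of replicate 2 were as low as 542 to 632 CPM. Within matched pairs, that is, samples of the same culture, co-factors and replicate number with and without Ngn3, Cdkn1a was higher with Ngn3 in 13 of 14, with a median ratio of 2.39. In a check described later, 12 of these 14 pairs deviated together, and 3 of 5 in Pdx1-MafA cells. Among all genes tested, 6.12% were higher in at least 13 of the pairs. The exception was the 6SA MafA pair of replicate 3, at 1016 CPM without Ngn3 and 905 CPM with it.

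The increase of Cdkn1a over all was 1.07 ± 0.18 (log2, SE) with an adjusted p of 4.41e-05 in edgeR. WT Ngn3-Pdx1-MafA cells had the highest mean, 1530 ± 149 CPM (SD, n = 3), and 6SA Pdx1 cells the lowest, 395 ± 48.0 CPM (n = 2). All 6 conditions with Ngn3 stood above all 6 without it by their means. At the border were WT Ngn3-Pdx1 cells, at 752 ± 184 CPM (n = 3), and 6SA MafA cells, at 612 ± 351 CPM (n = 3), which differed by less than their SDs. The share of all genes with this order of means is not given.

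By co-factor, Cdkn1a rose in MafA cells by 1.09 ± 0.30 (log2, adjusted p = 0.032 in edgeR), where 1 of the 10 genes was called against 4.67% of all genes. MafA cells had 440, 378 and 1016 CPM in the 6SA cultures and 573 and 369 CPM in the WT cultures, and Ngn3-MafA cells had 905 to 1419 CPM (median 1132, n = 6). Only the 1016 CPM sample reached the range of the Ngn3-MafA cells. This call was lost when any 1 of 8 samples was left out (adjusted p up to 0.181), without replicate 1 or 2 (0.166 and 0.567), with the first technical repeat alone (0.0567) and when libraries were scaled by their spike-in control RNA (0.238). In Pdx1 cells the difference was 0.86 ± 0.32 with an adjusted p of 0.227, from 361 to 556 CPM (n = 4) to 542 to 1072 CPM (median 856, n = 6).

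In Pdx1-MafA cells Cdkn1a rose by 1.26 ± 0.29 (log2, adjusted p = 0.00334 in edgeR). There it had 364 to 710 CPM (median 598, n = 6) without Ngn3. The Ngn3-Pdx1-MafA samples stood at 1630, 1601 and 1359 CPM in WT cultures and at 1697 and 632 CPM in 6SA cultures. Of these 5 samples, 6SA replicate 2 was within the range of the Pdx1-MafA cells and the others were above it. Without 6SA Ngn3-Pdx1-MafA replicate 1 the difference was 0.81 with an adjusted p of 0.077, and the call was also lost without replicate 1 (adjusted p = 0.0603), without replicate 2 (0.0701) and with spike-in scaling (0.255).

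Cdkn1c (chr7:143458339-143461050, minus strand), the p57 gene, an imprinted inhibitor that is expressed in endocrine progenitors as they stop dividing, was close to the limit of detection without Ngn3. It had 0 to 4.93 CPM (median 0.536) in those 15 samples, 5 of which held at most 3 counts, and 0.733 to 28.9 CPM (median 5.12) in the 17 samples with Ngn3. The groups overlapped at the low end, since 6SA and WT Ngn3-MafA replicate 1 had 0.733 and 0.807 CPM. It was higher with Ngn3 in 13 of 14 matched pairs, the WT MafA pair of replicate 2 being the exception at 4.93 CPM without and 1.96 CPM with Ngn3.

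The increase of Cdkn1c over all was 2.35 ± 0.62 (log2, SE, adjusted p = 0.00641 in edgeR). It ranged from 1.98 to 4.18 when replicates or samples were left out. With both factors beside Ngn3 it stood at 6.40, 13.6 and 5.85 CPM in WT and 6.17 and 13.7 CPM in 6SA cultures. Pdx1-MafA cells had 0.530 to 2.75 CPM (median 1.48, n = 6), below each of those samples. The difference of 2.70 ± 1.00 had an adjusted p of 0.0605 in edgeR. It passed in 12 of 45 alternatives, over which the difference was 2.36 to 3.09. Repeats of the same sample differed by a median of 2.72 times for this gene, and in 7 of the 17 samples with more than 1 library a repeat held 0 counts. Gm44732 lies antisense to Cdkn1c and reads of both cannot be told apart without strand.

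Cdkn1b (chr6:134920401-134925513, plus strand) encodes p27, which is controlled largely through the stability of the protein. It had at most 33.3 CPM (median 17.9) without Ngn3, the lowest being 6SA MafA replicate 2, and 10.6 to 33.7 CPM (median 14.3) with it, and it was higher with Ngn3 in 7 of 14 matched pairs. The ranges coincided, and the difference was -0.16 ± 0.19 (log2; 95% interval -0.55 to 0.24). With Pdx1 beside Ngn3-MafA it was 0.88 ± 0.32 higher (log2, adjusted p = 0.133 in edgeR), which DESeq2 called (adjusted p = 0.0256).

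**Figure D2:**
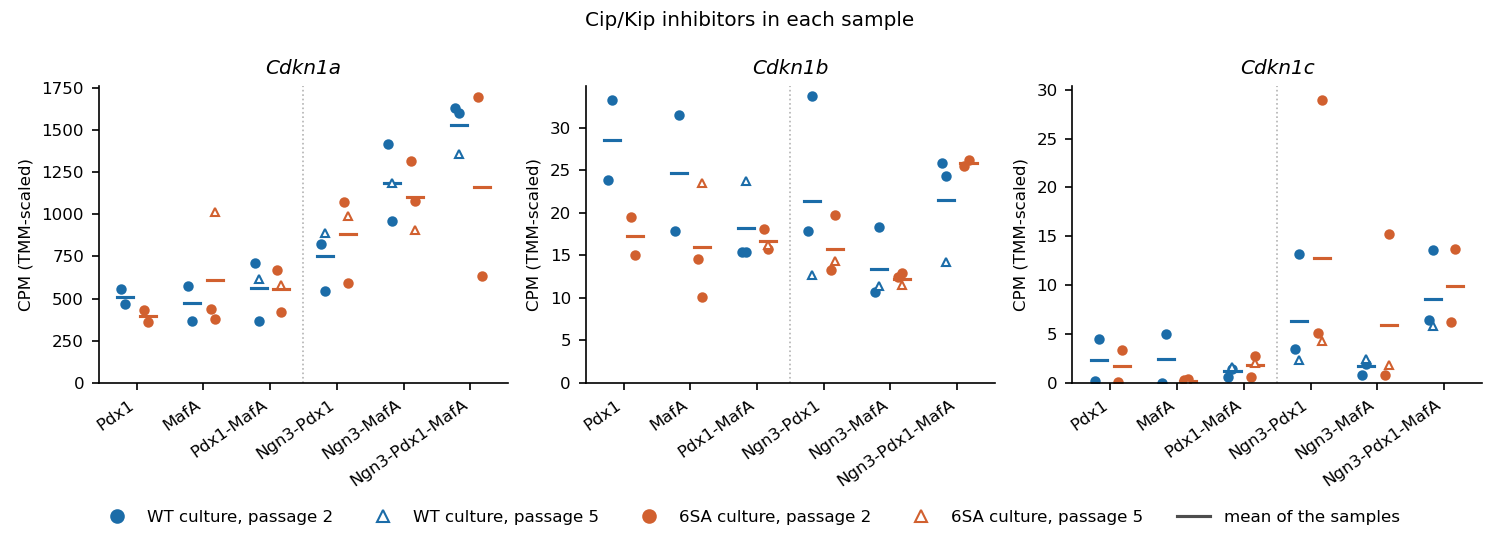
Level of Cdkn1a, Cdkn1b and Cdkn1c in each sample (CPM, linear axes from 0) by co-factors, without Ngn3 left of the dotted line and with it to the right. Lines are means of 2 or 3 samples, circles are passage 2 and open triangles passage 5, and Cdkn1a lies between 361 and 1016 CPM without Ngn3 and between 542 and 1697 CPM with it.

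Of the INK4 genes, Cdkn2b (chr4:89306299-89311039, minus strand), the p15 gene, which is induced by TGF-β, had the highest level per kilobase of exon, with a median of 118 CPM per kb in samples without Ngn3 against 6.84 for Cdkn2a and 1.33 for Cdkn2c. Over all it showed no call (-0.26 ± 0.20, adjusted p = 0.447), and the test of whether its difference depended on the co-factors did not pass (adjusted p = 0.399 in edgeR and 0.133 in DESeq2). In Pdx1-MafA cells it fell by 1.25 on the log2 scale (SE 0.35, adjusted p = 0.0126 in edgeR), 1 of 3 genes called there against 17.8% of all genes, the others being Cdkn1a and Ccnd1. Pdx1-MafA cells had 137 to 264 CPM (median 191, n = 6). The Ngn3-Pdx1-MafA samples had 70.5, 92.6 and 181 CPM in WT and 71.8 and 45.4 CPM in 6SA cultures. All but WT replicate 3, the passage 5 sample, were below the range of the Pdx1-MafA cells. Cdkn2b was lower with Ngn3 in 5 of 5 matched pairs. Replicate numbers did not pair the samples in these cells, and no share of all genes is given, so this count is a description only. The call was lost without 6SA Ngn3-Pdx1-MafA replicate 2 (adjusted p = 0.082), without replicate 2 in all conditions (0.295) and with spike-in scaling (0.175).

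In MafA and Pdx1 cells Cdkn2b differed by 0.24 ± 0.34 and 0.22 ± 0.36 with Ngn3 (log2, adjusted p = 0.903 and 0.958 in edgeR). The highest condition was WT Ngn3-MafA, at 272 ± 117 CPM (SD, n = 3), and the lowest was 6SA Ngn3-Pdx1-MafA, at 58.6 ± 18.7 CPM (n = 2). With Pdx1 beside Ngn3-MafA, Cdkn2b fell by 1.47 on the log2 scale (SE 0.35, adjusted p = 0.0225 in edgeR), 1 of 2 genes called in that comparison against 2.72% of all genes. The range in Ngn3-MafA cells was 142 to 369 CPM (median 202, n = 6), which the WT Ngn3-Pdx1-MafA sample of passage 5 reached. This call was lost without any 1 of 7 samples, that is, the Ngn3-MafA samples 6SA replicate 3, WT replicate 2 and WT replicate 3 and the 4 Ngn3-Pdx1-MafA samples of passage 2 (adjusted p 0.0503 to 0.101). It was also lost without replicate 2 (adjusted p = 0.606), with the first technical repeat alone (0.0604) and with spike-in scaling (0.333).

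Cdkn2a (chr4:89274471-89294653, minus strand) encodes p16 and, from another reading frame, ARF, which stabilises p53, and the counts do not separate these transcripts. It had 2.09 to 23.2 CPM (median 8.02) without Ngn3 and 3.73 to 26.9 CPM (median 10.7) with it. The groups overlapped throughout, and the difference was 0.50 ± 0.33 (log2; 95% interval -0.20 to 1.19). The 5 Ngn3 samples of passage 5 held 15.7 to 26.9 CPM and the 12 of passage 2 held 3.73 to 19.3 CPM (median 9.50). Without Ngn3, the 3 samples of passage 5 held 6.43, 12.6 and 23.2 CPM and those of passage 2 held 2.09 to 15.7 CPM.

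Cdkn2c (chr4:109660876-109667189, minus strand), the p18 gene, had 0.264 to 19.3 CPM (median 3.57) without Ngn3 and 0.122 to 10.1 CPM (median 2.30) with it. The difference was -1.25 ± 0.60 (log2) with an adjusted p of 0.154 in edgeR. Without Ngn3 it had 4.05 to 19.3 CPM in the 6 samples of replicate 2, 0.576 to 3.00 CPM in the 6 of replicate 1, and 0.264, 3.57 and 13.5 CPM in the 3 of replicate 3, the last being WT Pdx1-MafA. Mki67, a marker of dividing cells, had 60.3 to 434 CPM in these samples of replicate 2 and 13.9 to 66.0 CPM in those of replicate 1.

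**Figure D3:**
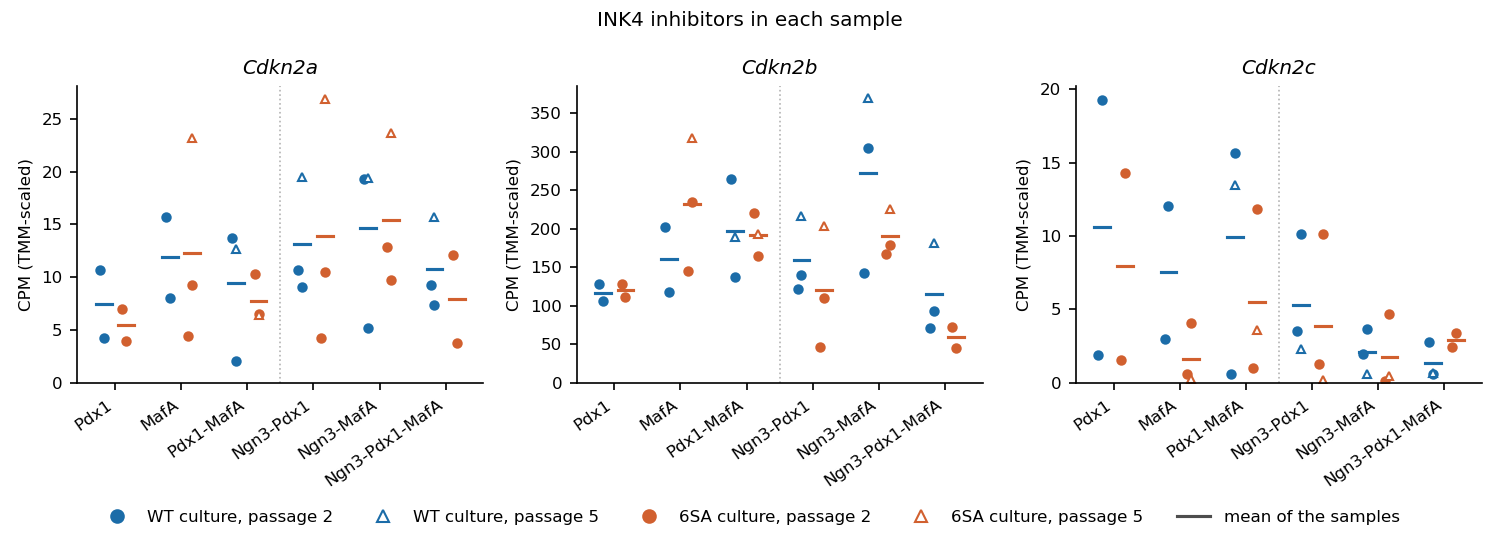
Level of Cdkn2a, Cdkn2b and Cdkn2c in each sample (CPM, linear axes from 0), with the same marks as for the Cip/Kip genes. Cdkn2b in Ngn3-Pdx1-MafA cells lies between 45.4 and 181 CPM, the highest being the passage 5 sample.

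Ccnd1 (chr7:144929931-144939925, minus strand), the D cyclin that growth factor and Wnt signals induce, was lower with Ngn3 over all, and by co-factor it was called in Pdx1-MafA cells. The test of whether its decrease depended on the co-factors passed in neither tool (adjusted p = 0.34 in edgeR and 0.0717 in DESeq2). It had 260 to 549 CPM (median 424) in the 15 samples without Ngn3 and 22.7 to 553 CPM (median 280) in the 17 with it. The low values were those of Ngn3-Pdx1-MafA cells at passage 2, which had 69.3 and 22.7 CPM in WT and 46.0 and 46.6 CPM in 6SA cultures, under every other sample. The sample of passage 5, WT Ngn3-Pdx1-MafA replicate 3, had 351 CPM. The left-out library of 6SA Ngn3-Pdx1-MafA replicate 3, also of passage 5 and with 408733 counts, held 279 CPM of Ccnd1 unscaled. In Pdx1-MafA cells the range was 260 to 537 CPM (median 398, n = 6), so the Ngn3-Pdx1-MafA samples of passage 2 were below it and that of passage 5 within it.

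The decrease of Ccnd1 over all was -0.99 ± 0.25 (log2, adjusted p = 0.00472 in edgeR), with 12 of 14 matched pairs lower, against 10.6% of all genes lower in at least 12 pairs. It was -2.28 ± 0.47 in Pdx1-MafA cells (adjusted p = 0.001), a 4.86-fold decrease, -0.66 ± 0.45 in Pdx1 cells (adjusted p = 0.619) and -0.04 ± 0.43 in MafA cells (95% interval -0.94 to 0.86). Among passage 2 samples alone, that is, without replicate 3, it was -1.62 over all (adjusted p = 1.22e-06) and -3.29 in Pdx1-MafA cells (adjusted p = 1.23e-06). The call over all was lost without replicate 1 (-0.64, adjusted p = 0.145) and without replicate 2 (-0.87, adjusted p = 0.137). That in Pdx1-MafA cells was lost without replicate 2 (-1.97, adjusted p = 0.0956) and with spike-in scaling (-2.12, adjusted p = 0.0621). At passage 5 the 2 matched pairs were 337 CPM without and 537 CPM with Ngn3 in 6SA MafA, and 380 and 351 CPM in WT Pdx1-MafA. With the left-out libraries added, the decrease was -0.75 over all (adjusted p = 0.055) and -1.55 in Pdx1-MafA cells (adjusted p = 0.0201).

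Passage and the level of Neurog3 went together. In the 5 Ngn3 samples of passage 5, Neurog3 had 7.87 to 38.8 CPM and Ccnd1 351 to 553 CPM. In the 12 of passage 2, Neurog3 had 34.9 to 329 CPM and Ccnd1 22.7 to 363 CPM. WT Ngn3-Pdx1-MafA replicate 3 had 14.6 CPM of Neurog3, 1265 CPM of summed endocrine markers and 5664 CPM of summed duct markers, whereas the other samples of that co-factor set had 163 to 329 CPM, 5105 to 9403 CPM and 2470 to 3579 CPM. Passage 5 is also replicate 3, so passage and replicate cannot be told apart, and the part of Neurog3 level in the Ccnd1 values was not tested.

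Each co-factor was also compared in the presence of Ngn3 and the other. MafA beside Ngn3-Pdx1 lowered Ccnd1 by 1.92 on the log2 scale (SE 0.46, adjusted p = 0.0229 in edgeR), the single gene of the 10 called, against 1.88% of all genes. Pdx1 beside Ngn3-MafA lowered it by 2.24 (SE 0.47, adjusted p = 0.00945). Ngn3-Pdx1 cells had 154 to 553 CPM (median 235, n = 6) and Ngn3-MafA cells 280 to 537 CPM (median 360, n = 6). Each of these ranges holds 351 CPM, the level of the passage 5 sample with both factors, and lies above the 4 of passage 2. The first of these calls was lost without any 1 of 5 samples (adjusted p 0.0672 to 0.133), namely either passage 5 Ngn3-Pdx1 sample, either 6SA Ngn3-Pdx1-MafA sample or WT Ngn3-Pdx1-MafA replicate 1. The second was lost without 6SA Ngn3-Pdx1-MafA replicate 1 or 2 (adjusted p = 0.0779 and 0.0526), and with the left-out libraries added both were lost (-1.20, adjusted p = 0.192, and -1.51, adjusted p = 0.0657). Both were lost as well without replicate 2 (adjusted p = 0.522 and 0.335) and with spike-in scaling (0.545 and 0.267), and the first also with the first technical repeat alone (0.0727).

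Ccnd2 (chr6:127125162-127152193, minus strand), the D cyclin on which β cell growth after birth depends, did not pass the test over all. It had 703 to 1380 CPM (median 962) without Ngn3 and 616 to 1650 CPM (median 1012) with it. The ranges overlapped almost fully, with a difference of 0.10 ± 0.14 (log2; 95% interval -0.19 to 0.38). In MafA cells Ccnd2 was lower with Ngn3 in 5 of 5 matched pairs (-0.34 ± 0.23, adjusted p = 0.559 in edgeR). In Pdx1-MafA cells, where replicate numbers did not pair the samples, it was higher in 4 of 5 (0.46 ± 0.23, adjusted p = 0.183 in edgeR, and 0.0189 in DESeq2). Ngn3-Pdx1-MafA cells had 1626, 1281 and 1012 CPM in WT and 1650 and 1375 CPM in 6SA cultures, the 1012 CPM being the passage 5 sample. With Pdx1 beside Ngn3-MafA the difference was 0.70 ± 0.23 (adjusted p = 0.0987), and with replicate numbers as a block, which pair the samples there, it was 0.73 (adjusted p = 0.0239).

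Per kilobase of exon, Ccnd1 and Ccnd2 were near each other without Ngn3, with medians of 90.0 and 102 CPM per kb, and Ccnd3 was at 6.10. The ratio of Ccnd2 to Ccnd1 per kb was 0.757 to 2.05 (median 1.15, n = 15) in these samples. In Ngn3-MafA cells it was 0.740 to 1.86 (median 1.04, n = 6), and in Ngn3-Pdx1 cells 0.876 to 2.94 (median 1.95, n = 6). In Ngn3-Pdx1-MafA cells it was 11.8, 28.3 and 1.44 in WT and 18.0 and 14.8 in 6SA cultures. The passage 5 sample at 1.44 was within the range of cells without Ngn3, and the others were above all other samples. Ccnd2 made up 89.3% to 94.8% of the D cyclin level per kb in those 4 samples and 41.8% to 66.3% in samples without Ngn3.

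**Figure D4:**
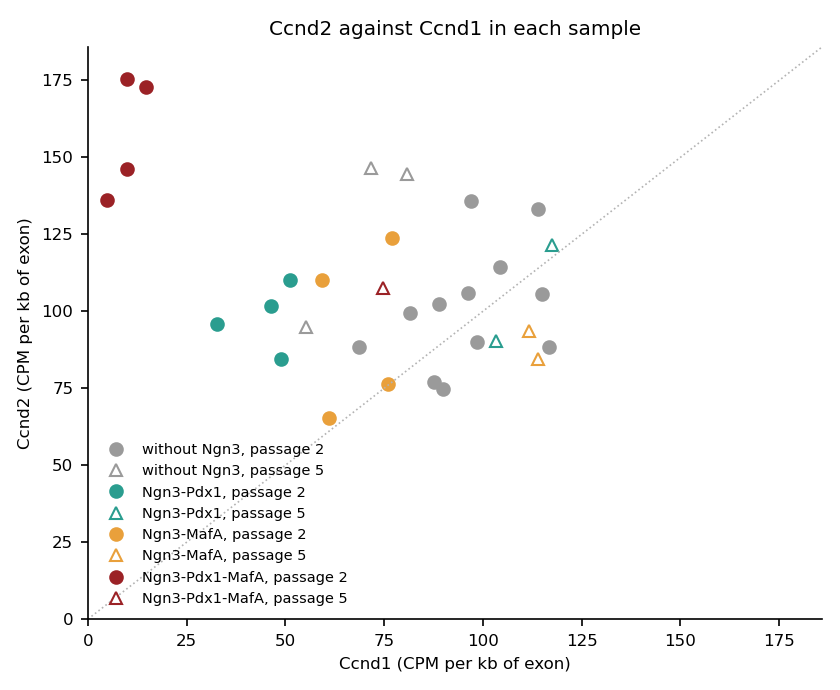
Ccnd2 against Ccnd1 in each of the 32 samples, both in CPM per kilobase of merged exons, with circles for passage 2, open triangles for passage 5 and a dotted line where both are equal. The 4 Ngn3-Pdx1-MafA samples of passage 2 lie at the upper left, with Ccnd2 11.8 to 28.3 times Ccnd1, and the passage 5 sample lies among the rest.

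Ccnd3 (chr17:47505051-47599691, plus strand), the third D cyclin, was lower with Ngn3. It had 24.5 to 74.3 CPM (median 53.5) without Ngn3 and 18.2 to 66.5 CPM (median 35.3) with it. The groups overlapped, since 6SA MafA replicate 3 was the lowest without Ngn3, the next being 39.2 CPM, and 4 samples with Ngn3 stood above that, among them both 6SA Ngn3-Pdx1-MafA samples at 44.3 and 66.5 CPM. The decrease was -0.52 ± 0.15 (log2, adjusted p = 0.0138 in edgeR), with 12 of 14 matched pairs lower, and was of like size by co-factor, at -0.51 ± 0.27 in Pdx1, -0.60 ± 0.26 in MafA and -0.45 ± 0.26 in Pdx1-MafA cells, none of which was called alone. The call over all was lost without replicate 1 (-0.37, adjusted p = 0.462), without replicate 2 (-0.56, adjusted p = 0.205), with no gene filter (-0.49, adjusted p = 0.150) and with spike-in scaling (-0.72, adjusted p = 0.191). A processed copy, Ccnd3-ps, held 1.47 to 7.67 CPM, so a share of Ccnd3 reads may have been placed there. Bysl overlaps Ccnd3 on the other strand, as LTO1 does Ccnd1.

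Ccne1 (chr7:38097984-38107534, minus strand), the E cyclin that activates CDK2 at the entry to S phase, had 1.32 to 64.0 CPM (median 10.1) without Ngn3 and 1.49 to 33.7 CPM (median 4.37) with it. The decrease was -1.60 ± 0.52 (log2, adjusted p = 0.0261 in edgeR), with 12 of 14 matched pairs lower. Most of the high values were those of replicate 2. Without Ngn3, replicate 2 had 14.8 to 64.0 CPM (median 48.0, n = 6), replicate 1 had 2.02 to 7.18 CPM (median 4.64, n = 6) and replicate 3 had 1.32, 10.1 and 16.4 CPM. Without replicate 2 the decrease was -0.62 (adjusted p = 0.654), and without each of its 6 samples lacking Ngn3 in turn the adjusted p was 0.0594 to 0.144, and it was 0.0721 without 6SA Ngn3-Pdx1-MafA replicate 1. The call was also lost without replicate 3 (-1.65, adjusted p = 0.0668) and with the first technical repeat alone (-1.52, adjusted p = 0.0631). Repeats of 1 sample differed by a median of 1.90 times and by up to 16.4 times.

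Samples without Ngn3 that were high in Ccne1 were also high in the sum of 20 S- and M-phase genes. The 4 Pdx1 and Pdx1-MafA samples of replicate 2 held 47.5 to 64.0 CPM of Ccne1 and 2628 to 3822 CPM of these genes, and the other 11 held 1.32 to 21.2 CPM and 303 to 1273 CPM. The part of dividing cells in the Ccne1 values was not tested. In Pdx1-MafA cells Ccne1 differed by -2.45 ± 0.95 with Ngn3 (adjusted p = 0.0736 in edgeR, 0.024 in DESeq2). It was lower in 5 of 5 matched pairs, although replicate numbers did not pair the samples there. The Ngn3-Pdx1-MafA samples held 4.37, 3.95 and 5.85 CPM in WT and 1.49 and 5.82 CPM in 6SA cultures.

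**Figure D5:**
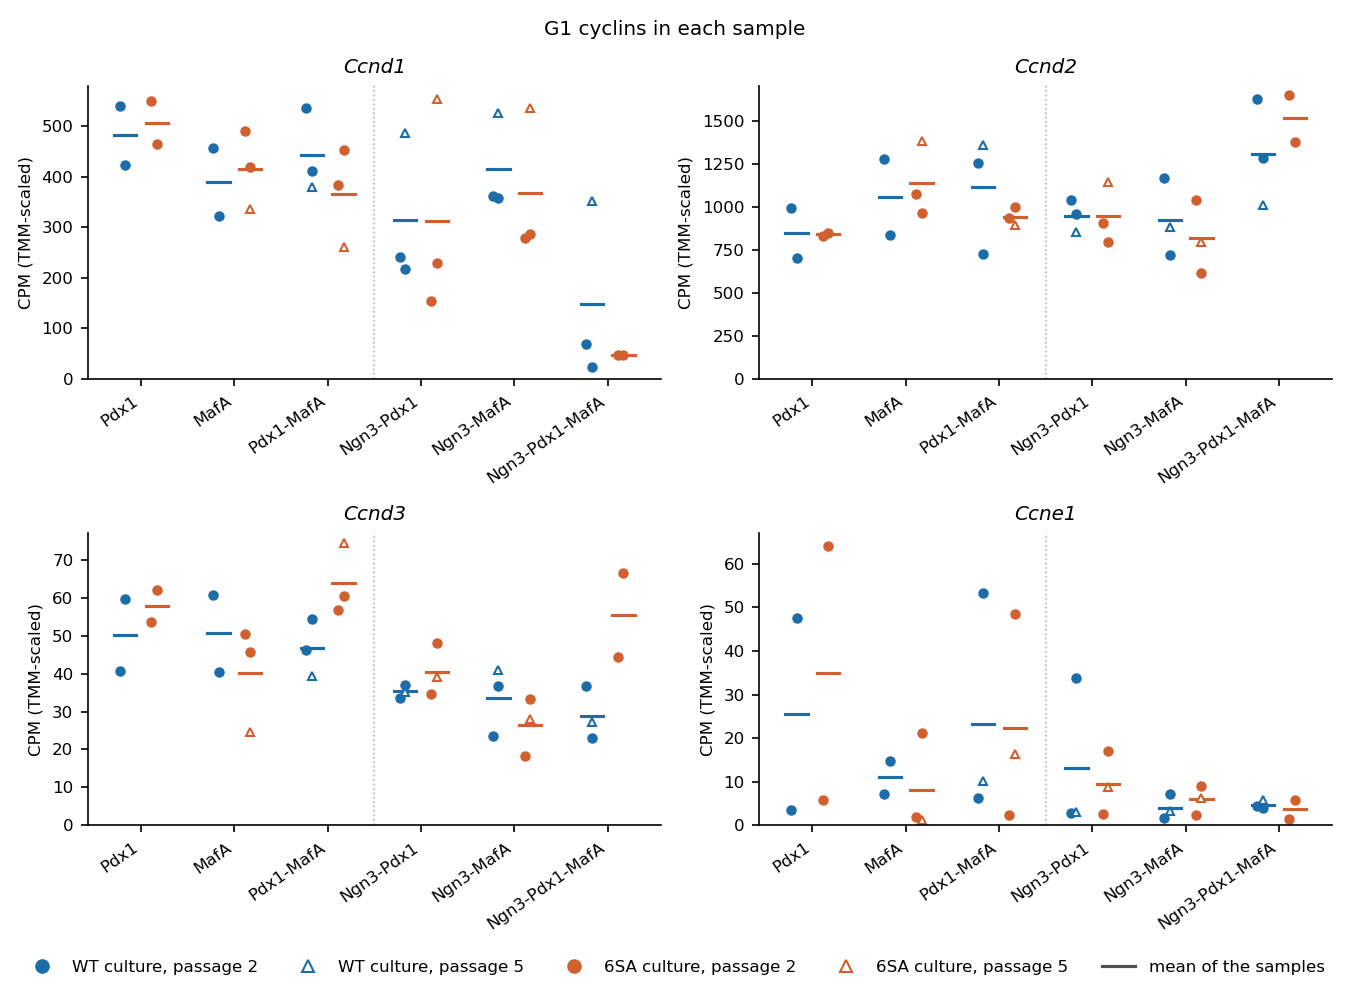
Level of Ccnd1, Ccnd2, Ccnd3 and Ccne1 in each sample (CPM, linear axes from 0), with lines for the means of 2 or 3 samples, circles for passage 2 and open triangles for passage 5. Ccnd1 is at 22.7 to 69.3 CPM in the passage 2 Ngn3-Pdx1-MafA samples and at 351 CPM in that of passage 5.

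The form of Ngn3 gave no call. Between 6SA and WT cells with Ngn3, 0 of the 10 genes were called by edgeR and 0 by DESeq2, with 1 at an unadjusted p under 0.05, and of all genes edgeR called 0% and DESeq2 called 26. That gene was Cdkn2b, lower in 6SA cells by -0.63 ± 0.27 (log2, adjusted p = 0.809). No difference in the effect of Ngn3 between cultures was called for the 10 (0 called by edgeR and 0 by DESeq2, 0 at an unadjusted p under 0.05), and of all genes edgeR called 0% and DESeq2 called 5 genes. The 95% interval of that difference was -0.80 to 0.64 for Cdkn1a, -1.64 to 0.48 for Ccnd1 and -0.36 to 4.55 for Cdkn1c. A large difference in Cdkn1c was therefore not excluded.

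Within each kind of culture, the WT cultures gave 1 call, Cdkn1a (1.11 ± 0.25, adjusted p = 0.00429 in edgeR), against 8.59% of all genes. With replicate numbers as a block, which pair the samples in these cultures, Cdkn1c (1.98, adjusted p = 0.0367), Ccnd1 (-1.05, adjusted p = 0.027) and Ccne1 (-1.25, adjusted p = 0.0426) were called too. The 6SA cultures gave 3 calls, against 14.1% of all genes, namely Cdkn1a (1.03 ± 0.25, adjusted p = 0.00515), Cdkn1c (3.40 ± 0.91, adjusted p = 0.0117) and Ccnd1 (-1.29 ± 0.36, adjusted p = 0.0172). Without replicate 2 all 4 of these calls were lost, with adjusted p of 0.205 for Cdkn1a in WT cultures and of 0.091, 0.0704 and 0.247 for Cdkn1a, Cdkn1c and Ccnd1 in 6SA cultures. Without replicate 1 the 6SA calls of Cdkn1a (adjusted p = 0.206) and Ccnd1 (0.110) were lost. Single 6SA samples ended them too, Ngn3-Pdx1-MafA replicate 1 for Cdkn1a (0.0517) and Ccnd1 (0.0528), its replicate 2 for Ccnd1 (0.0534) and Pdx1 replicate 1 for Cdkn1c (0.0651). The 6SA call of Ccnd1 was lost in 7 of 45 alternatives, 4 of them by leaving out. Its difference over all alternatives ran from -1.79 to -0.80 (log2). In Pdx1 cells 0 genes were called by edgeR, 1 was at an unadjusted p under 0.05, DESeq2 called Cdkn1a (adjusted p = 0.04) and 1.49% of all genes were called. There the block, which pairs those samples, called Cdkn1c (2.92, adjusted p = 0.0392).

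Co-factors were also compared in the absence of Ngn3, where Pdx1, MafA and Pdx1-MafA cells gave no call among the 10 (0 by edgeR and 0 by DESeq2, 0 at an unadjusted p under 0.05), and of all genes edgeR called 0% and DESeq2 called 4. Whether the effect of Ngn3 depended on the co-factors was tested over the 3 sets together, and 0 of the 10 were called by edgeR and 0 by DESeq2, with 2 at an unadjusted p under 0.05, against 0.0333% of all genes called by edgeR. These were Ccnd1 and Cdkn2b, with the adjusted p values given with each gene. Without WT Ngn3-Pdx1-MafA replicate 3, Ccnd1 was called in that test (adjusted p = 0.00269 in edgeR). Between 6SA and WT cells without Ngn3, 0 of the 10 were called by either tool and 0 were at an unadjusted p under 0.05. Of all genes, edgeR called 0% there and DESeq2 called 8.

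Other G1 genes were taken from a list of 20, of which 11 were called over all, 3 higher and 8 lower, with a median of -0.40 (log2). Higher were Fbxw7, whose product marks cyclin E for degradation (0.87 ± 0.17), Rb1, the retinoblastoma gene (1.07 ± 0.23), and Cdkn2d, the fourth INK4 gene (1.31 ± 0.35, adjusted p = 0.00723 in edgeR). Lower with the lowest adjusted p were Cdk2 (-1.34 ± 0.27), the partner of cyclin E, Skp2 (-1.33 ± 0.28), which directs degradation of p27, and Cdk6 (-1.16 ± 0.25), a partner of the D cyclins. In Pdx1-MafA cells 8 of the 20 were called, 2 higher and 6 lower, and in MafA and Pdx1 cells 1 and 0.

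Among 20 S- and M-phase genes, all 20 fell over all, with a median of -3.02 (log2). The lowest adjusted p values were those of Mcm5 (-2.64 ± 0.30) and Mcm2 (-1.41 ± 0.17), parts of the replicative helicase, and Ccnb1 (-4.31 ± 0.70), the mitotic cyclin. In Pdx1-MafA cells 19 of the 20 were called lower (median -4.18, log2), against 17.8% of all genes called. In MafA cells 6 were called lower (median -2.54), against 4.67%, and in Pdx1 cells 1 (median -2.02), against 1.49%. The summed level of the 20 genes had a median of 984 CPM without Ngn3 and 330 CPM with it. The ranges of 303 to 3822 CPM and 113 to 1462 CPM overlapped.

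Of 14 regulators of the inhibitors, 7 were called, 3 higher and 4 lower, with a median of 0.01. Higher were Neurod1 (10.33 ± 0.56) and Insm1 (7.70 ± 0.60), endocrine factors linked to cell cycle exit, and Kmt2a (0.88 ± 0.18), a histone methyltransferase. Lower were Ezh2, the Polycomb methyltransferase (-1.23 ± 0.25), Trp53, the p53 gene (-0.67 ± 0.18), and Smad3, a TGF-β effector (-0.82 ± 0.23). Mdm2 and Ccng1, targets of p53 like Cdkn1a that were picked after their values were seen, differed by 0.05 ± 0.22 and -0.06 ± 0.18 (adjusted p = 1 for both in edgeR). The part of p53 in the Cdkn1a values was not tested.

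For the 8 genes with a mean of at least 5 CPM, the most similar genes were found among 11686 by the Pearson correlation of log2(CPM + 1) over the 32 samples, which share depth and replicate. Ccnd1 was most like Phgdh (r = 0.948), Wnt7b (0.939) and Mtap (0.938), and Cdkn1a like Bik (0.897), Cd63-ps (0.863) and Cd63 (0.856). Ccne1 was most like Usp1 (0.900), Hist1h1b (0.865) and Trim59 (0.863), and Cdkn2b like Mgmt (0.863), Myl12a (0.851) and Ppic (0.848). Lower values were found for Cdkn2a with Ddit3 (0.815), Ube2b (0.766) and Fkbp7 (0.759), for Ccnd3 with Nek2 (0.766), Gk (0.765) and Ppp2r2b (0.757), for Ccnd2 with Ggact (0.760), Thap3 (0.733) and 2210016L21Rik (0.718), and for Cdkn1b with Atp2b1 (0.709), Sik2 (0.674) and Camk2n1 (0.659).

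Within the 10 genes, Cdkn2c and Ccne1 varied together across samples (r = 0.79 over all 32, 0.88 over the 15 without Ngn3 and 0.55 over the 17 with it). Cdkn2b and Ccnd1 had r = 0.67 over all samples, 0.78 with Ngn3 and -0.24 without it. Cdkn1a ran against Ccne1 (r = -0.68) and Ccnd3 (r = -0.70) over all samples. These correlations describe the samples and were given no test.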

How the data were processed

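RNA from pools of 50 sorted cells was made into libraries with a Nextera XT kit, which does not mark strand. The authors deposited raw read counts per gene, made with GSNAP and HTSeq (0.5.3p3) according to the submitters' processing notes, on mm10 with Ensembl genes, and the strand setting of the counting is not given in the sources used here. Summary lines of the counter, 33.9% to 67.3% of a library, were left out. Of 61 libraries, 58 with over 1000000 gene counts (1373561 to 9736403), over 10000 genes detected and under 25% spike-in counts were kept, and technical repeats were summed to 32 samples, grouped by their labels.

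Counts of 24004 genes, those with reads in 5 or more libraries and whose CPM had a variance over 0.001, were fitted over all 12 conditions with edgeR 4.0.16 (TMM scaling, quasi-likelihood test, Benjamini-Hochberg adjustment, threshold 0.05) in R 4.3.3. Intervals of fold changes are 95% on 20 residual degrees of freedom. DESeq2 1.42.0, other filters and scalings, a replicate block, all libraries, first repeats and leaving out replicates or samples were alternatives. Spike-in scaling was added after seeing the data. The fit was tested on simulated data.

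Per-kilobase levels used merged exons. Gene positions came from GENCODE on GRCm38 and promoters from RefSeq. Counts limit precision through sampling of reads, and 3 counts were taken as the limit of detection, which covers counting error only. Replicate numbers were taken to pair samples where every pair of same-numbered samples deviated together from the group means over 5000 genes with a correlation over 0.1. That held in Pdx1 cells (4 of 4 pairs), MafA cells (5 of 5), WT cultures (7 of 7) and between Ngn3-Pdx1-MafA and Ngn3-MafA cells (5 of 5). It did not hold over all (12 of 14), in Pdx1-MafA cells (3 of 5), in 6SA cultures (5 of 7) or between Ngn3-Pdx1-MafA and Ngn3-Pdx1 cells (3 of 5).

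Named are the 10 genes, the 3 induced factors, the 3 higher and 3 lower genes with the lowest adjusted p of each list, and the 3 genes most correlated with each of the 10 that had a mean of at least 5 CPM. Exceptions are stated, and some marker genes that this rule names are not reported here. The 10 genes and the lists were chosen with earlier results of these data known.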

Additional observations from a re-analysis of the deposited data

Results flagged for a closer look

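Of 60 sets of 4 to 6 samples, each 1 gene in 1 co-factor set over both cultures, 8 held a sample that stood apart from the others by Dixon's criterion, which chance meets in about 1 in 20. For Ccnd1, WT Ngn3-Pdx1-MafA replicate 3 had 351 CPM and the others of its set 22.7 to 69.3 CPM. Cdkn1b in the same sample had 14.2 CPM, against 24.3 to 26.2 CPM in the others. Further samples of Cdkn1b were WT Ngn3-MafA replicate 2 at 18.3 CPM (others 10.6 to 12.9 CPM), WT Ngn3-Pdx1 replicate 2 at 33.7 CPM (others 12.6 to 19.8 CPM) and WT Pdx1-MafA replicate 3 at 23.7 CPM (others 15.3 to 18.1 CPM). For Cdkn1c, WT MafA replicate 2 had 4.93 CPM, against 0 to 0.324 CPM, and 6SA Ngn3-MafA replicate 2 had 15.3 CPM, against 0.733 to 2.42 CPM. For Ccnd3, 6SA Ngn3-Pdx1 replicate 2 had 48.1 CPM, against 33.6 to 39.0 CPM.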

How the results depend on the processing

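Over all co-factors and both cultures, Cdkn1a (0.87 to 1.19, highest adjusted p 0.0442) and Cdkn1c (1.98 to 4.18, highest adjusted p 0.0212) kept their direction and their call in all 45 alternatives. The number of the 10 genes called, 5, ranged from 2 to 6 when replicates or samples were left out, the 2 being without replicate 2. Leaving out gave 0 to 1 in Pdx1 cells, 0 to 1 in MafA cells, 0 to 4 in Pdx1-MafA cells, 0 to 2 in WT and 0 to 4 in 6SA cultures, 0 to 1 for the effect of Ngn3 between co-factor sets, 0 to 1 for MafA beside Ngn3-Pdx1 and 0 to 3 for Pdx1 beside Ngn3-MafA.

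DESeq2 called 1 of the 10 genes in Pdx1, 6 in Pdx1-MafA cells, 2 in WT cultures and 4 for Pdx1 beside Ngn3-MafA. It also called more of all genes there, namely 939, 5198, 2830 and 1948, against 358, 4279, 2062 and 654 by edgeR. The counts for the settings that follow are given without a share of all genes. With no gene filter, 5 were called in Pdx1-MafA cells, 3 in WT cultures and 1, Ccnd1, for the effect of Ngn3 between co-factor sets. With all libraries, 5 were called in Pdx1-MafA cells and 0 for MafA beside Ngn3-Pdx1. With the first repeat only, 0 were called in MafA cells, 0 for MafA beside Ngn3-Pdx1 and 1 for Pdx1 beside Ngn3-MafA. With spike-in scaling, 0 were called in MafA cells, Pdx1-MafA cells, WT cultures and both co-factor comparisons, and 1 in 6SA cultures.

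The replicate block called 5 genes over all, 1 in Pdx1 cells, 5 in Pdx1-MafA cells, 4 in WT and 5 in 6SA cultures, and a block by culture called 1, 5 and 2 in Pdx1 cells, Pdx1-MafA cells and WT cultures. In Pdx1-MafA cells the replicate block added Cdkn1c (2.74, adjusted p = 0.00689 in edgeR) and Ccne1 (-1.85, adjusted p = 0.0108). In 6SA cultures it added Cdkn2b (-0.70, adjusted p = 0.0308) and Ccne1 (-1.16, adjusted p = 0.0483). In both, samples of the same number share passage but did not meet the rule for pairing.

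Values that turned in sign were far from the threshold. They were Ccnd2 over all with spike-in scaling (-0.10), Cdkn2b over all without replicate 1 (0.040; -0.50 to 0.040 over all samples or replicates left out) and Cdkn1b over all without replicate 3 (0.084; -0.32 to 0.084). In Pdx1-MafA cells Cdkn2a turned to -0.037 with spike-in scaling, -0.023 without replicate 1, -0.035 without replicate 3, -0.099 without WT Pdx1-MafA replicate 2, -0.44 without 6SA Ngn3-Pdx1-MafA replicate 1 and -0.084 without WT Ngn3-Pdx1-MafA replicate 3, the range over all left out being -0.44 to 0.41. Spike-in scaling moved the median of all genes over all from 0.07 to -0.10 and in Pdx1 cells from 0.07 to -0.41. The cause of these changes was not tested.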
